A study of Homo sapiens with 8 samples.

Results

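Amino acid transporters are described here: 9 genes (SLC3A2, SLC7A11, SLC7A5, SLC7A1, SLC1A4, SLC1A5, SLC38A1, SLC38A2 and SLC6A9) out of the 26364 genes counted, across untreated and temozolomide-exposed cells of both LN229 clones. The genes were chosen by name, with earlier results on the same 8 libraries known, and no threshold was set. Their levels and fold changes in these libraries are therefore given as a description, without p-values. Each of the 9 symbols matched 1 row, and 9 of 9 passed the filter on low counts that left 14201 genes for testing.

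Amino acid transporters of the plasma membrane carry the building blocks of protein, glutathione and nucleotides into the cell, and many work as exchangers that trade an internal amino acid for an external one. SLC3A2 (4F2hc, CD98) is the heavy chain that brings several light chains of the SLC7 family to the membrane, among them SLC7A5 (LAT1), which takes up leucine and other large neutral amino acids, and SLC7A11 (xCT), which imports cystine in exchange for glutamate. When amino acids run short or the endoplasmic reticulum is stressed, the transcription factor ATF4 is translated and binds composite elements at genes of amino acid uptake and synthesis, while the antioxidant regulator NRF2 (encoded by NFE2L2) acts on cystine import and glutathione synthesis. In glioblastoma, cystine import, glutamate release and glutamine uptake are well-studied traits of the tumour cell.

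LN229 is a human glioblastoma cell line, and temozolomide (TMZ) is the methylating drug used against this tumour. The series measured total RNA by sequencing in 2 stable clones of LN229 to ask whether the response to TMZ depends on where Survivin, the product of BIRC5, resides in the cell. The clone Surv-GFP carried a plasmid for Survivin fused to eGFP with an intact nuclear export sequence (NES). Its cells held the protein mainly in the cytoplasm without drug. The clone SurvNESmut-GFP carried the same fusion with a mutated NES and held it mainly in the nucleus. The study also reports that the fusion protein of Surv-GFP accumulated in the nucleus upon TMZ. The TMZ-exposed clones therefore cannot be read as a plain contrast of cytoplasmic and nuclear Survivin. Both clones were sequenced without drug and after 48 h with TMZ at 50 µM, which makes 4 groups of 2 libraries, lettered a and b. Cells of every group grew in serum-containing medium with G418, the antibiotic that selects for the plasmid. The drug was dissolved in DMSO, and the sources used here do not say whether the untreated cells received the solvent. Each construct was represented by 1 clone, so that an effect of Survivin localization and any other difference between the clones cannot be told apart. The study describes its transcriptome data as coming from independent biological replicates, each run in technical duplicate, and the labels do not say which of these the letters stand for. The spread between letters, and every p-value resting on it, may therefore be technical.

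Counts assigned to genes ranged from 15826923 to 18861603 per library. The levels of BIRC5, which cover the plasmid and the endogenous gene together, were 1113 to 1152 CPM (counts per 1000000 counts on genes, scaled by TMM) in untreated and 1938 to 2029 CPM in TMZ-exposed Surv-GFP, against 407 to 414 CPM and 253 to 262 CPM in SurvNESmut-GFP. Of 8 glioma markers, 7 passed the filter and GFAP did not, with at most 17 counts in a library. Between the untreated clones, 5 of the 7 were called lower and 2 higher in SurvNESmut-GFP, beside 29.4% and 34.7% of all genes. S100B, named after its values were seen, stood at 756 to 798 CPM in untreated Surv-GFP and at 40.1 to 41.2 CPM in untreated SurvNESmut-GFP. The 2 higher ones were NES, with means of 736 and 965 CPM, and CD44, with 574 and 653 CPM, in the same order of clones. Markers of blood, endothelial, epithelial and neuronal cells (6 genes) had at most 7 counts. The letters of the TMZ-exposed SurvNESmut-GFP group differed most, with a chi-square of 5.74 per degree of freedom against 2.203 to 2.66 in the other groups. In that group 8 of the 9 transporters were higher in library a than in library b. Splits to 1 side also occurred elsewhere, with 1 of the 9 higher in library a in untreated Surv-GFP, 7 in TMZ-exposed Surv-GFP and 6 in untreated SurvNESmut-GFP.

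TMZ was accompanied by higher levels of all 9 transporters in Surv-GFP, by 1.21-fold for SLC1A4 to 3.71-fold for SLC3A2. In SurvNESmut-GFP, SLC7A11, SLC38A1 and SLC6A9 stood at 2.01-fold, 2.11-fold and 2.73-fold of their untreated level, whereas the values of SLC3A2, SLC7A5 and SLC38A2 with TMZ were 1.02-fold, 0.981-fold and 1.04-fold of the untreated ones. Levels in CPM are relative to all mRNA of a library. In pooled cells, more mRNA per cell and a larger share of cells carrying it cannot be told apart. The TMZ effects and the comparisons of clones share libraries, and the values of each are set side by side without a test between them.

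**Figure D1:**
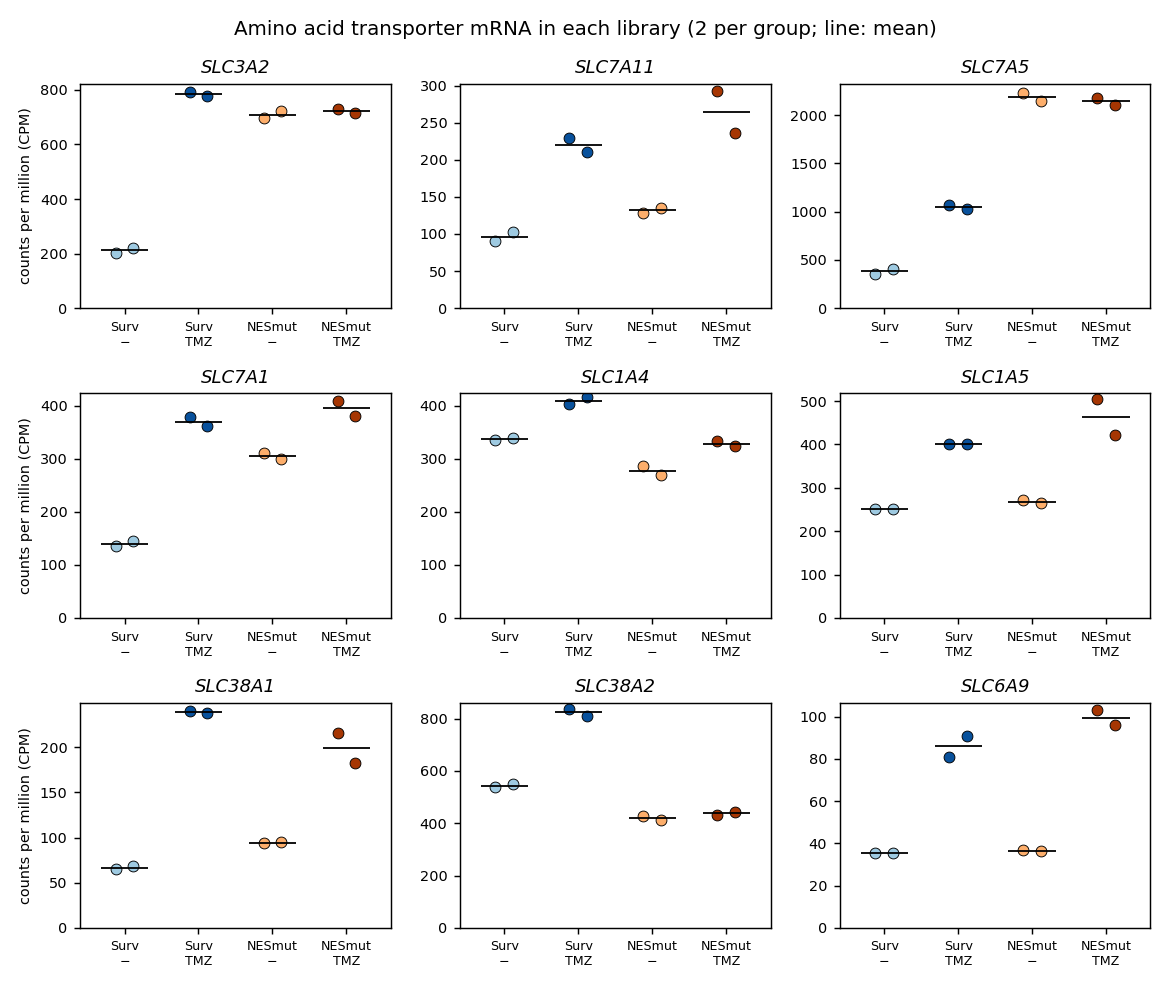
Level of each of the 9 amino acid transporters in CPM (vertical axis, starting at 0, its own scale in each panel) in the 8 libraries, with Surv-GFP in blue, SurvNESmut-GFP in orange, TMZ-exposed libraries in the darker shade and the group mean as a line. SLC3A2, SLC7A5 and SLC7A1 stood higher in untreated SurvNESmut-GFP than in untreated Surv-GFP, while SLC6A9 and SLC1A5 started from nearly the same level in both clones and were higher with TMZ in both.

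SLC3A2, the shared heavy chain, stood at 203 and 220 CPM in the 2 untreated Surv-GFP libraries and at 794 and 779 CPM in the TMZ-exposed ones. In SurvNESmut-GFP the 4 values were 697 and 722 CPM untreated and 731 and 714 CPM with TMZ. The untreated Surv-GFP libraries were thus the only low ones, and the untreated and TMZ-exposed SurvNESmut-GFP libraries overlapped. Upon TMZ the level of Surv-GFP changed by 1.89 ± 0.050 on the log2 scale (SE, as for all log2 fold changes below) and that of SurvNESmut-GFP by 0.026 ± 0.048, so that the clones differed by -1.87 ± 0.069 in their response. Without drug, SurvNESmut-GFP exceeded Surv-GFP by 1.74 ± 0.050.

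SLC7A5, the light chain for large neutral amino acids, had 354 and 409 CPM in untreated Surv-GFP and 1071 and 1030 CPM after TMZ. The SurvNESmut-GFP libraries gave 2232 and 2141 CPM untreated and 2180 and 2109 CPM with TMZ. Every SurvNESmut-GFP library was therefore above every Surv-GFP library, and the SurvNESmut-GFP libraries with and without drug overlapped. In log2 terms, TMZ moved the level of Surv-GFP by 1.46 ± 0.058 and that of SurvNESmut-GFP by -0.028 ± 0.056. The untreated clones differed by 2.52 ± 0.060 (5.73-fold) and the TMZ-exposed clones by 1.03 ± 0.057, the largest clone difference among the 9 transporters in either state. Of its related copies, the pseudogenes SLC7A5P1 and SLC7A5P2 held 7 to 19 and 38 to 78 counts per library against 6534 to 41155 for SLC7A5, and how shared reads were counted between them is not known.

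SLC7A11, the light chain for cystine and glutamate exchange, was found at 90.2 and 102 CPM in untreated Surv-GFP and at 229 and 210 CPM with TMZ. Its values in SurvNESmut-GFP were 129 and 135 CPM untreated and 293 and 237 CPM with TMZ. Both clones thus had higher libraries with the drug and no overlap between states. Surv-GFP showed a log2 fold change of 1.19 ± 0.084 and SurvNESmut-GFP one of 1.004 ± 0.083. The effects differed by -0.18 ± 0.12, which was -0.35 without library a and -0.039 without library b of TMZ-exposed SurvNESmut-GFP. The difference between the TMZ-exposed clones was 0.27 ± 0.080 and fell to 0.069 without library a of SurvNESmut-GFP.

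Because both light chains need the heavy chain, their counts were also related to it within each library. SLC7A5 had 1.74 and 1.86 counts per SLC3A2 count in untreated Surv-GFP and 1.35 and 1.32 with TMZ, and between 2.95 and 3.20 in the 4 SurvNESmut-GFP libraries. The ratio was lower with TMZ in Surv-GFP, and in SurvNESmut-GFP the 2 states overlapped. SLC7A11 had 0.444 and 0.465 counts per SLC3A2 count in untreated and 0.289 and 0.270 in TMZ-exposed Surv-GFP, against 0.185 and 0.187 in untreated and 0.400 and 0.331 in TMZ-exposed SurvNESmut-GFP. The drug thus went with a lower ratio of the cystine transporter to the heavy chain in Surv-GFP and with a higher one in SurvNESmut-GFP. These ratios are of counts and do not correct for transcript length.

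SLC7A1 (CAT1), the main carrier of arginine and lysine, had 135 and 145 CPM in untreated and 379 and 363 CPM in TMZ-exposed Surv-GFP. SurvNESmut-GFP held 312 and 300 CPM untreated and 410 and 382 CPM with TMZ. As for SLC3A2, the untreated Surv-GFP libraries were the lowest, but here the SurvNESmut-GFP libraries with TMZ also lay above those without. With TMZ, the log2 fold change reached 1.41 ± 0.055 in Surv-GFP against 0.37 ± 0.053 in SurvNESmut-GFP, which differ by -1.03 ± 0.076. The untreated clones differed by 1.13 ± 0.055 and the TMZ-exposed ones by 0.095 ± 0.052, or 0.0055 without library a of TMZ-exposed SurvNESmut-GFP.

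SLC1A5 (ASCT2) exchanges neutral amino acids and is a major route for glutamine. Its level was 252 and 250 CPM in untreated Surv-GFP and 401 CPM in both libraries with TMZ, and in SurvNESmut-GFP it was 271 and 265 CPM untreated and 505 and 421 CPM with TMZ. The states did not overlap in either clone. The log2 fold changes were 0.67 ± 0.065 and 0.79 ± 0.065, and their difference of 0.11 ± 0.091 was -0.024 without library a of TMZ-exposed SurvNESmut-GFP. SLC1A4 (ASCT1), its relative for alanine, serine and cysteine, moved least of the 9 in Surv-GFP. Its values were 335 and 339 CPM untreated and 403 and 416 CPM with TMZ in Surv-GFP, and 287 and 269 CPM untreated and 334 and 324 CPM with TMZ in SurvNESmut-GFP. TMZ-exposed libraries were the higher ones in both clones, by 0.28 ± 0.048 and 0.24 ± 0.049 on the log2 scale, and the difference of SurvNESmut-GFP from Surv-GFP was -0.28 ± 0.049 untreated and -0.32 ± 0.048 with TMZ.

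SLC38A1 and SLC38A2 (SNAT1 and SNAT2) import glutamine and other small neutral amino acids with sodium. SLC38A1 had 65.2 and 68.3 CPM in untreated and 240.1 and 238 CPM in TMZ-exposed Surv-GFP, and 94.2 and 94.7 CPM in untreated and 216 and 182 CPM in TMZ-exposed SurvNESmut-GFP. It was higher with the drug in both clones without overlap, by 1.84 ± 0.067 and 1.08 ± 0.066 on the log2 scale, a difference of -0.76 ± 0.093. SLC38A2 had 538 and 549 CPM in untreated and 838 and 810.4 CPM in TMZ-exposed Surv-GFP, against 429 and 411 CPM in untreated and 432 and 443 CPM in TMZ-exposed SurvNESmut-GFP. Its SurvNESmut-GFP libraries lay within 411 to 443 CPM in both states, below every Surv-GFP library. SLC38A2 had a log2 fold change of 0.60 ± 0.046 in Surv-GFP against 0.060 ± 0.046 in SurvNESmut-GFP. The clones differed by -0.37 ± 0.046 untreated and by -0.91 ± 0.046 with TMZ.

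SLC6A9 (GLYT1), a sodium- and chloride-coupled glycine transporter, was the gene of lowest CPM among the 9. It had 35.2 and 35.3 CPM in untreated and 80.9 and 90.9 CPM in TMZ-exposed Surv-GFP, and 36.7 and 36.2 CPM in untreated and 103 and 95.9 CPM in TMZ-exposed SurvNESmut-GFP. The untreated libraries of both clones lay within 35.2 to 36.7 CPM, and all TMZ-exposed libraries were above them. On the log2 scale TMZ added 1.28 ± 0.066 in Surv-GFP and 1.45 ± 0.066 in the other clone, a difference of 0.16 ± 0.094. The TMZ-exposed clones differed by 0.21 ± 0.060, or by 0.094 without library a of TMZ-exposed Surv-GFP and 0.12 without library a of TMZ-exposed SurvNESmut-GFP.

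**Figure D2:**
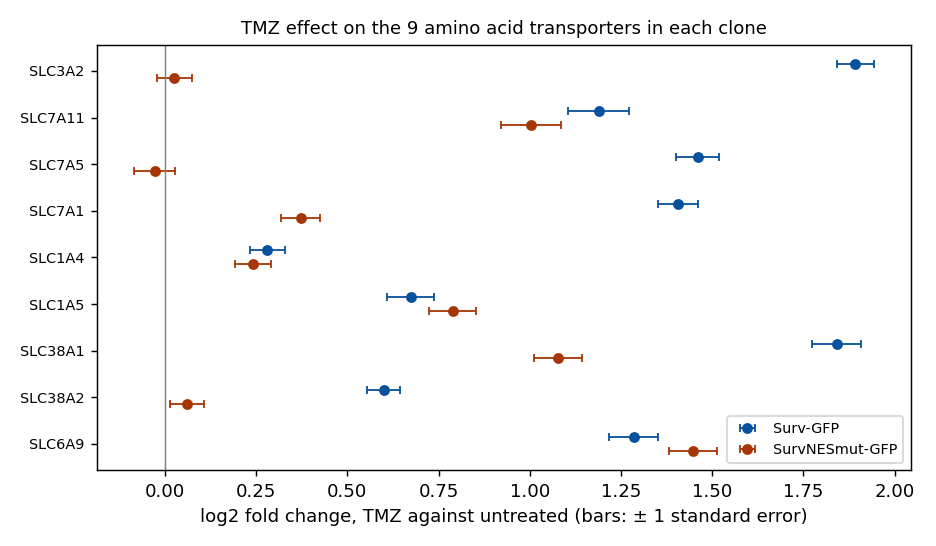
Log2 fold change upon TMZ (horizontal axis, bars ± 1 SE) of the 9 amino acid transporters in Surv-GFP (blue) and SurvNESmut-GFP (orange-brown). The clones lie apart for SLC3A2, SLC7A5, SLC7A1, SLC38A1 and SLC38A2 and close together for SLC7A11, SLC1A4, SLC1A5 and SLC6A9.

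Counted at an adjusted p under 0.05 in the fit over all 14201 genes, 9 of the 9 transporters were higher with TMZ in Surv-GFP, where 30.1% of all genes tested were called higher and 28.9% lower. In SurvNESmut-GFP, 6 of the 9 were called higher, beside 18.6% of all genes higher and 19.1% lower. For 5 of the 9 the TMZ effect was called smaller in the clone SurvNESmut-GFP, with 20.2% of all genes called in that direction and 16.6% in the other. Between the untreated clones 5 were called higher and 2 lower in SurvNESmut-GFP, beside 34.7% and 29.4% of all genes. Between the TMZ-exposed clones 4 were called higher and 4 lower in SurvNESmut-GFP, beside 34.5% and 34.7% of all genes, and the 4 higher became 1 without library a of SurvNESmut-GFP and 2 without library a of Surv-GFP. Because the 9 were chosen with these contrasts known, the counts describe the choice and nothing is read from their distance to the shares of all genes. The median log2 fold change of the 9 was 1.28 upon TMZ in Surv-GFP and 0.37 in SurvNESmut-GFP, where the median over all genes tested was 0 and 0.0035. It was -0.54 for the difference of the TMZ effects, 0.45 between the untreated and 0.095 between the TMZ-exposed clones, with medians over all genes of -0.0010, 0.034 and -0.00053.

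Summed over the 9 genes, the level was 2009 and 2119 CPM in untreated Surv-GFP, 4435 and 4338 CPM with TMZ, 4486 and 4375 CPM in untreated SurvNESmut-GFP and 5203 and 4908 CPM with TMZ. The untreated Surv-GFP libraries thus held less than any of the other libraries, and TMZ-exposed Surv-GFP overlapped untreated SurvNESmut-GFP. That overlap rests on SLC7A5, with 1071 and 1030 CPM in TMZ-exposed Surv-GFP and 2232 and 2141 CPM in untreated SurvNESmut-GFP. Without this gene the sum is higher in TMZ-exposed Surv-GFP than in either state of SurvNESmut-GFP. Per kilobase of exon (GENCODE v29), SLC38A2 was the most abundant of the 9 in untreated Surv-GFP with 109 ± 1.57 CPM per kilobase (SD, n = 2), followed by SLC7A5 with 83.2 ± 8.52 and SLC3A2 with 79.8 ± 4.48, whose libraries overlapped. With TMZ, SLC3A2 led in Surv-GFP with 296 ± 3.82 CPM per kilobase, ahead of SLC7A5 with 229 ± 6.36 and SLC38A2 with 165 ± 3.86. SLC7A5 led in SurvNESmut-GFP with 477 ± 13.9 CPM per kilobase untreated and 468 ± 11.0 with TMZ, and SLC3A2 came next with 267 ± 6.55 and 272 ± 4.47. SLC7A11, SLC38A1 and SLC6A9 took the 3 lowest places in all 4 groups, between 7.16 and 27.4 CPM per kilobase, and the libraries of SLC6A9 and SLC38A1 overlapped in TMZ-exposed SurvNESmut-GFP. Taking the length of the longest transcript instead of all exons changed some places, and SLC7A5 then came below SLC1A5 in untreated Surv-GFP.

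Exons of 4 of the 9 genes overlap a gene on the opposite strand in GENCODE v29: by 276 bases for SLC7A11 and SLC7A11-AS1, 116 bases for SLC7A5, 780 bases for SLC1A5 and 331 bases for SLC6A9 and CCDC24. How strand was handled in counting is not stated by the sources at hand, and reads in these stretches could belong to either gene.

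To show what the start sites of these genes look like, their RefSeq promoter windows (GRCh38.p14, 300 bases from 250 before to 50 after a start site) were searched on both strands. The first search was for the composite element read by ATF4 and its partners, spelled TGATGNAAN, and the second for the antioxidant element read by NRF2, spelled TGACNNNGC, whose matches do not overlap in the windows of these genes. Of the 9 genes 8 had at least 1 window, SLC7A11 had none, and genes with several start sites have several windows. The composite element was present in a window of 5 of the 8 (SLC3A2, SLC7A1, SLC1A4, SLC1A5 and SLC38A1), beside 4.45% of all 27305 genes and 3.61% of all 35116 windows. The antioxidant element was present for 4 of the 8 (SLC3A2, SLC7A5, SLC7A1 and SLC1A5), beside 16.1% of genes and 13.3% of windows. Counts by gene are not a like measure to shares of windows. The 8 genes had 1 to 3 windows each, and a gene with more windows has more room for a match. The 4 windows printed here belong to the genes with an entry whose log2 fold change upon TMZ in Surv-GFP was largest, and for SLC3A2 and SLC38A1 it is the window that holds a match. They run 5′ to 3′ on the strand of the gene, and capitals mark the matched letters of either element on either strand.
SLC3A2 chr11:62881449-62881748 (+): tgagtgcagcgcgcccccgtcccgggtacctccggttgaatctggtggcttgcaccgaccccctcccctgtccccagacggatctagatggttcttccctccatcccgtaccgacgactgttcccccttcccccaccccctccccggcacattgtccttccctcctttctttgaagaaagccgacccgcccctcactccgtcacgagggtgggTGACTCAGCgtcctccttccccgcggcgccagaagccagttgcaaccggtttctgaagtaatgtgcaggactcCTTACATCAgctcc
SLC38A1 chr12:46266467-46266766 (-): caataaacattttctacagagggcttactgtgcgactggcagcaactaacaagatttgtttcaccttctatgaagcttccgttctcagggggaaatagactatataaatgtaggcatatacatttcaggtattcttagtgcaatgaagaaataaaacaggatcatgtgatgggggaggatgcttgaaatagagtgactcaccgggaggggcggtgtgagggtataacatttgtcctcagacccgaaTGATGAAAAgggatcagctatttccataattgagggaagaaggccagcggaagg
SLC7A5 chr16:87869458-87869757 (-): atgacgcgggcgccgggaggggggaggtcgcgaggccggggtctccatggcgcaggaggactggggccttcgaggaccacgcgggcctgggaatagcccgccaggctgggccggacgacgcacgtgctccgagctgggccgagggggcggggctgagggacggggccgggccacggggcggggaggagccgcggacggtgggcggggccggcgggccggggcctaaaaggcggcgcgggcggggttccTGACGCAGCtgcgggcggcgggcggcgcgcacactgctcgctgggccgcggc
SLC7A1 chr13:29595639-29595938 (-): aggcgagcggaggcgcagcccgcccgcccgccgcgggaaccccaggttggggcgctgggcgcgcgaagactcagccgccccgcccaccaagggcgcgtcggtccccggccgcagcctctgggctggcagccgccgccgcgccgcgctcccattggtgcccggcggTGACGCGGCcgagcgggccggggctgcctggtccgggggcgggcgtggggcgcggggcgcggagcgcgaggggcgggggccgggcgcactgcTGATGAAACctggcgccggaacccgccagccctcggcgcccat
Counted from 0 at the start site, the antioxidant element TGACTCAGC of SLC3A2 begins at position -37 and the composite element, read as TGATGTAAG on the opposite strand, at 36. SLC38A1 holds TGATGAAAA at -4, SLC7A5 holds TGACGCAGC at -2, and SLC7A1 holds TGACGCGGC at -85 and TGATGAAAC at 7. A match is a description of these letters and not of binding, and the windows of SLC38A2 and SLC6A9 held neither element.

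The genes most like each transporter in pattern were looked for among all genes tested, by the root mean square difference of centred log2 CPM over the 8 libraries, for the 6 transporters whose group means spanned at least 1 on the log2 scale. SLC3A2 was nearest to the microRNA host gene MIR22HG (0.15), the orphan receptor GPRC5A (0.16) and the NF-κB inhibitor TNFAIP3 (0.19). In GPRC5A the group means were 15.8 ± 1.87 and 57.3 ± 2.07 CPM without and with TMZ in Surv-GFP, and 52.7 ± 1.61 and 41.6 ± 2.37 CPM in SurvNESmut-GFP (SD, n = 2). Nearest to SLC7A11 were the tRNA export factor XPOT (0.085), ROBO3 (0.11) and PIDD1 (0.12), and XPOT rose from 226 ± 10.8 to 572 ± 10.4 CPM and from 336 ± 7.71 to 626 ± 48.8 CPM. For SLC7A5 the nearest genes, TOX2 (0.19), SLC22A23 (0.20) and GPR39 (0.22), were all of low level, at most 18.6 CPM as a group mean.

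SLC7A1 had the closest neighbour of all, DNTTIP1 (0.040), a subunit of a histone deacetylase complex, followed by the cell cycle repressor E2F7 (0.11) and NIPAL1 (0.11). DNTTIP1 stood at 43.5 ± 1.18 and 113 ± 0.698 CPM in Surv-GFP and at 89.7 ± 4.58 and 122 ± 7.70 CPM in SurvNESmut-GFP. For SLC38A1 the list was CDC42EP1 (0.075), PABPC1L (0.12) and PVT1 (0.13). SLC6A9 was nearest to PCK2 (0.089), the mitochondrial enzyme that makes phosphoenolpyruvate, which rose from 29.9 ± 1.24 to 75.6 ± 0.762 CPM and from 28.4 ± 1.49 to 81.5 ± 7.19 CPM, and next to GRIP1 (0.10) and KCTD21-AS1 (0.16). With group means in place of libraries, 3 of the 3 neighbours were kept for SLC3A2, 2 of 3 for SLC7A1 and SLC6A9, and 1 of 3 for SLC7A11, SLC7A5 and SLC38A1.

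Of 50 further amino acid transporters listed, 49 were in the count file and 26 passed the filter, of which 10 rose, 10 fell and 6 did not pass the test upon TMZ in Surv-GFP, with a median log2 fold change of 0.068, beside the 30.1% of all genes called higher and 28.9% lower. In SurvNESmut-GFP 5 rose and 7 fell, with a median of -0.020, beside 18.6% and 19.1% of all genes, and leaving out either untreated SurvNESmut-GFP library reduced the 5 to 3 (library a) or 2 (library b). The log2 fold change upon TMZ was called higher in SurvNESmut-GFP than in Surv-GFP for 5 of the 26 and lower for 7, beside 16.6% and 20.2% of all genes. Among the 5 are SLC1A1 and SFXN3, which fell in both clones and less in SurvNESmut-GFP. These counts lie near the shares of all genes, and nothing particular to the further transporters is read from them. Many were at or near 0: of 30 further transporters of the plasma membrane, 20 had at most 13 counts in any library, among them SLC1A2, SLC7A2, SLC7A8 and SLC38A4, named after their counts were seen.

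**Figure D3:**
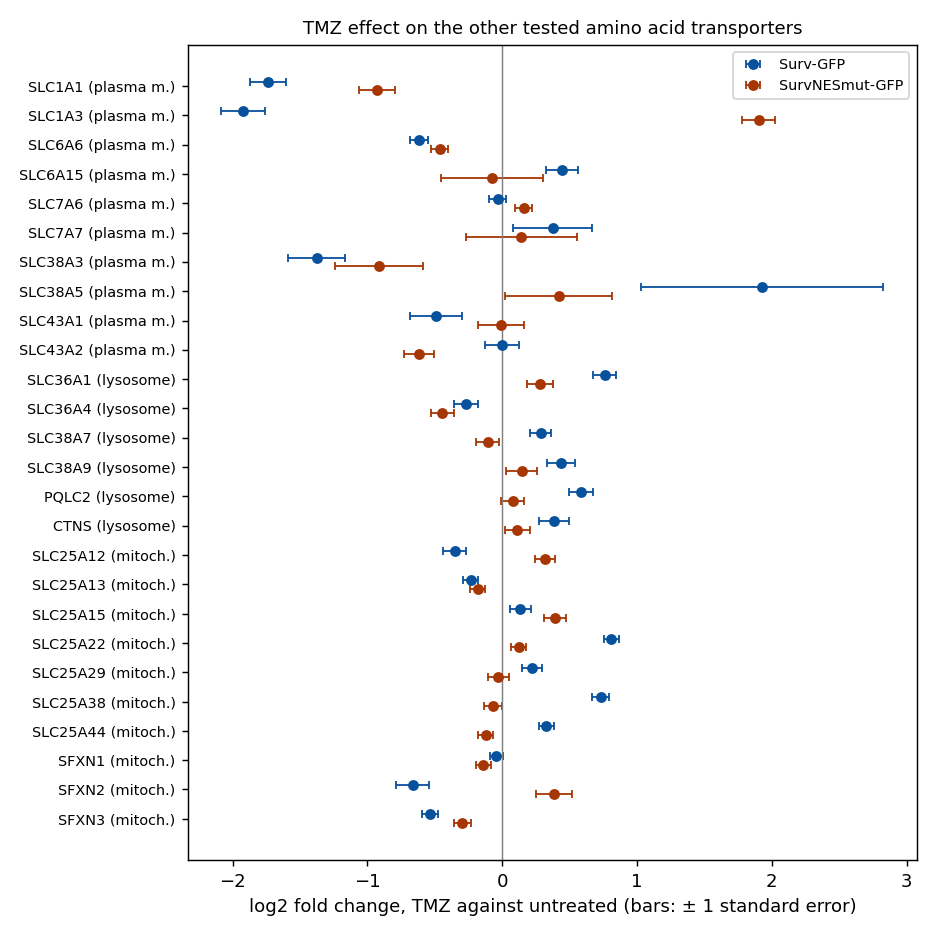
Log2 fold change upon TMZ (horizontal axis, bars ± 1 SE) of the 26 other amino acid transporters tested, by compartment, in Surv-GFP (blue) and SurvNESmut-GFP (orange-brown). SLC1A3 lies at -1.92 in Surv-GFP and at 1.90 in SurvNESmut-GFP; SLC38A5, with 3 and 0 counts in untreated Surv-GFP and named after its values were seen, has the widest error.

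Of all genes tested, 30.1% were called higher and 28.9% lower upon TMZ in Surv-GFP, and 18.6% and 19.1% in SurvNESmut-GFP. Beside these shares, nothing particular to plasma membrane transporters is read from the counts below. Among the 10 further plasma membrane transporters tested, SLC1A3 (EAAT1), a glutamate importer of glial cells, moved in opposite directions. It had 13.7 and 13.0 CPM in untreated and 2.67 and 4.42 CPM in TMZ-exposed Surv-GFP, and 7.59 and 8.72 CPM in untreated and 30.5 and 30.6 CPM in TMZ-exposed SurvNESmut-GFP. The log2 fold change was -1.92 ± 0.16 (adjusted p = 3.6e-08, edgeR quasi-likelihood test, as below) in Surv-GFP and 1.90 ± 0.12 (adjusted p = 6.7e-09) in SurvNESmut-GFP, and the effects differed by 3.82 ± 0.20 (adjusted p = 1.1e-09). The neuronal glutamate transporter SLC1A1 (EAAT3) fell in both clones, by 1.74 ± 0.13 (adjusted p = 1.1e-08) and 0.93 ± 0.13 (adjusted p = 3.6e-05), as did the taurine transporter SLC6A6, by 0.62 ± 0.065 (adjusted p = 4.5e-07) and 0.46 ± 0.061 (adjusted p = 1.8e-05). In Surv-GFP 1 of the 10 rose, SLC6A15, by 0.44 ± 0.12 (adjusted p = 0.0043, but 0.086 without library b of untreated and 0.052 without library a of TMZ-exposed Surv-GFP), and 5 fell, SLC38A3 and SLC43A1 being the other ones, named after their values were seen. In SurvNESmut-GFP 1 rose (SLC1A3) and 4 fell, including SLC43A2, a carrier of large neutral amino acids, by 0.62 ± 0.11 (adjusted p = 0.00036; in Surv-GFP 0.0012 ± 0.13, adjusted p = 1) and SLC38A3, also named after its value was seen.

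Of 6 lysosomal amino acid transporters tested, 5 rose upon TMZ in Surv-GFP and SLC36A4 fell by 0.27 ± 0.091 (adjusted p = 0.018, and 0.15 without library b of the untreated and 0.071 without library b of the TMZ-exposed group, and 0.055 with DESeq2). SLC36A1 (PAT1), which exports small amino acids with protons, rose by 0.76 ± 0.083 (adjusted p = 7.9e-07), the cationic amino acid exporter PQLC2 by 0.59 ± 0.089 (adjusted p = 2.8e-05) and the arginine-sensing SLC38A9 by 0.43 ± 0.10 (adjusted p = 0.0016). SLC38A7 and the cystine exporter CTNS, the latter named after its value was seen, rose by 0.29 ± 0.080 and 0.38 ± 0.11 (adjusted p = 0.0055 and 0.0062). In SurvNESmut-GFP 1 rose, SLC36A1 by 0.28 ± 0.098 (adjusted p = 0.034, and 0.098 to 0.13 without library a or b of the untreated or library a of the TMZ-exposed group, and 0.16 with DESeq2, 0.053 with no filter and 0.065 with the compared groups alone), and 1 fell, SLC36A4 by 0.44 ± 0.088 (adjusted p = 0.00085). The TMZ effect was lower in SurvNESmut-GFP for 3 of the 6, PQLC2, SLC36A1 and SLC38A7, with differences of -0.51 ± 0.12, -0.48 ± 0.13 and -0.39 ± 0.12 (adjusted p = 0.0041, 0.008 and 0.014). The call of SLC36A1 was lost with DESeq2 (adjusted p = 0.062), and that of SLC38A7 with DESeq2 (0.075) and without library b of untreated Surv-GFP (0.063) or of untreated SurvNESmut-GFP (0.066). Over the 6 the median was 0.41 in Surv-GFP against 0.095 in SurvNESmut-GFP. Beside these counts, 30.1% of all genes were called higher and 28.9% lower in Surv-GFP, and 18.6% and 19.1% in SurvNESmut-GFP. For the difference of TMZ effects, 16.6% of all genes were called higher and 20.2% lower. The list holds few genes and was chosen with earlier results known, so nothing particular to lysosomal transporters is read from it.

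Of 10 mitochondrial carriers tested, 3 rose and 2 fell in SurvNESmut-GFP, beside 18.6% and 19.1% of all genes. In Surv-GFP 4 rose and 4 fell, beside 30.1% and 28.9% of all genes, and nothing particular to these carriers is read from the counts. The glutamate carrier SLC25A22 rose by 0.81 ± 0.056 (adjusted p = 3e-09) and the glycine carrier SLC25A38 by 0.73 ± 0.063 (adjusted p = 4e-08), whereas the sideroflexins SFXN3 and SFXN2 fell by 0.54 ± 0.061 and 0.66 ± 0.12 (adjusted p = 1.1e-06 and 0.00017). SLC25A44 and SLC25A29, the latter named after its value was seen, also rose, and SLC25A12 and SLC25A13 also fell. In SurvNESmut-GFP the values of SLC25A22 and SLC25A38 were 0.12 ± 0.055 and -0.071 ± 0.067 (adjusted p = 0.095 and 0.44), and the effects differed by -0.69 ± 0.079 and -0.80 ± 0.092 (adjusted p = 5e-06 and 4.7e-06). There 3 carriers rose, the ornithine carrier SLC25A15, the aspartate-glutamate carrier SLC25A12 and SFXN2, by 0.39 ± 0.080, 0.32 ± 0.075 and 0.39 ± 0.14 (adjusted p = 0.00098, 0.0033 and 0.034), and 2 fell, SFXN3 and SLC25A13. The call of SFXN2 in SurvNESmut-GFP was lost without library a or b of the untreated or library b of the TMZ-exposed group and with DESeq2, with adjusted p of 0.11 to 0.14, that of SLC25A12 without library b of the untreated group (0.055) and that of SLC25A13 without library a of the untreated group (0.19).

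Most of the listed genes of the amino acid response, known to be induced through ATF4 or to belong to it, rose in both clones. Of 21 listed and tested, 19 rose in Surv-GFP and 20 in SurvNESmut-GFP, beside 30.1% and 18.6% of all genes, with median log2 fold changes of 1.46 and 1.16 where the median over all genes was 0 and 0.0035. The list was chosen with earlier results of these data known. Its counts and p-values, here and below, therefore describe these genes and are not an independent test of a response. ATF4 mRNA itself rose by 0.85 ± 0.052 (adjusted p = 6.5e-10) and 0.52 ± 0.052 (adjusted p = 8.5e-07), from 254 and 247 to 460 and 443 CPM in Surv-GFP and from 270 and 285 to 412 and 383 CPM in SurvNESmut-GFP. ASNS, which makes asparagine, rose by 2.46 ± 0.067 and 1.94 ± 0.066 (adjusted p = 3e-14 and 3.1e-12), and CHAC1, which degrades glutathione, by 4.25 ± 0.12 and 3.57 ± 0.10 (adjusted p = 3.5e-14 and 8e-13). The gene that fell in SurvNESmut-GFP was ATF5, by 0.41 ± 0.088 (adjusted p = 0.0015).

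**Figure D4:**
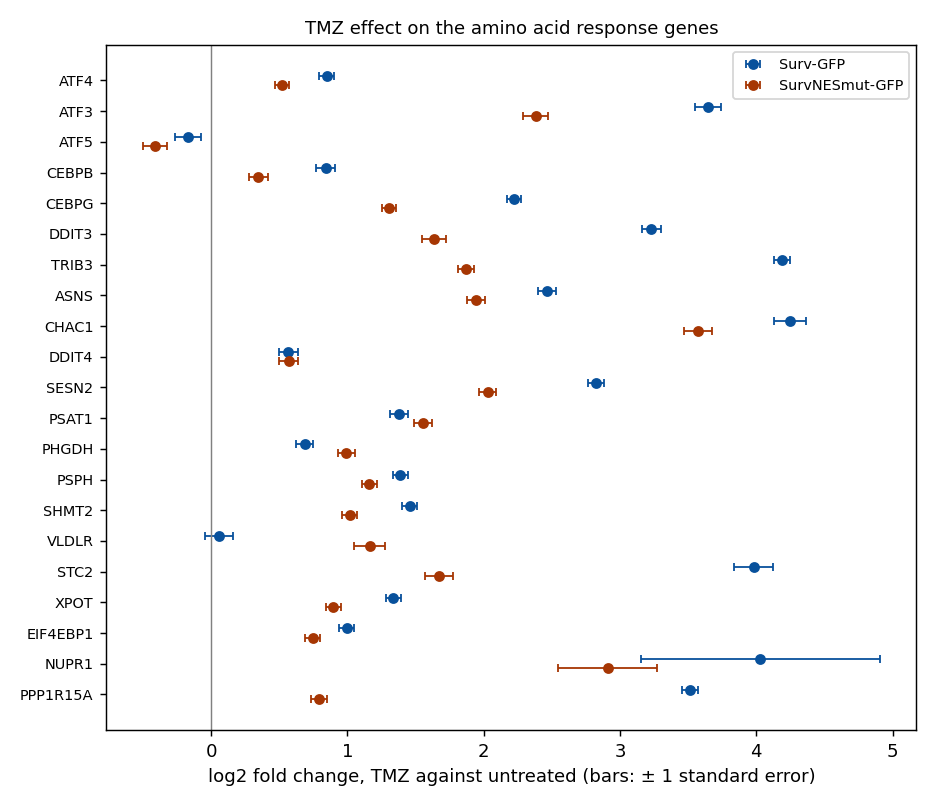
Log2 fold change upon TMZ (horizontal axis, bars ± 1 SE) of the 21 amino acid response genes in Surv-GFP (blue) and SurvNESmut-GFP (orange-brown). Most points lie right of 0 in both clones, TRIB3 at 4.19 and 1.87 and PPP1R15A at 3.52 and 0.79; NUPR1, with 1 and 0 counts in untreated Surv-GFP and named after its values were seen, has the widest error.

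The rise was smaller in SurvNESmut-GFP for 15 of the 21 response genes and larger for 2, beside 20.2% and 16.6% of all genes called lower and higher. The stress-inducible PPP1R15A (GADD34), the pseudokinase TRIB3 and DDIT3 (CHOP) had the smallest p-values for a smaller rise. Their differences were -2.72 ± 0.082, -2.32 ± 0.079 and -1.59 ± 0.12 (adjusted p = 1.1e-12, 5.9e-12 and 3.7e-08). By size, STC2, named after its value was seen, lay beyond DDIT3, with a difference of -2.31 ± 0.18 (adjusted p = 8.1e-08). TRIB3 had 40.6 and 38.8 CPM in untreated and 702 and 748 CPM in TMZ-exposed Surv-GFP, against 51.2 and 52.5 CPM and 192 and 187 CPM in SurvNESmut-GFP. DDIT3 had 30.9 and 28.6 CPM in untreated and 277 and 281 CPM in TMZ-exposed Surv-GFP, against 15.2 and 13.5 CPM and 41.2 and 48.4 CPM in SurvNESmut-GFP. Both genes thus had their high libraries in TMZ-exposed Surv-GFP and lower, non-overlapping ones in TMZ-exposed SurvNESmut-GFP. VLDLR and PHGDH, the entry enzyme of serine synthesis, were the genes with the larger rise in SurvNESmut-GFP, by 1.11 ± 0.15 and 0.31 ± 0.084 (adjusted p = 3.4e-05 and 0.0092, the latter 0.062 without library b of untreated Surv-GFP). Without drug 13 of the 21 were higher and 5 lower in SurvNESmut-GFP (DDIT3, VLDLR, PHGDH and, named after their values were seen, DDIT4 and PSPH), and with TMZ 7 were higher, a count that fell to 3 without library a of TMZ-exposed SurvNESmut-GFP and to 4 without either TMZ-exposed Surv-GFP library, and 12 lower. Of all genes, 34.7% were called higher and 29.4% lower without drug, and 34.5% and 34.7% with TMZ, so that the 5 lower without drug and the 7 higher with TMZ stand near the shares of all genes.

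Cystine imported by SLC7A11 feeds glutathione, and of 13 genes of this supply and of the NRF2 response 5 rose and 4 fell upon TMZ in Surv-GFP and 6 rose and 2 fell in SurvNESmut-GFP, beside 30.1% and 28.9% of all genes in Surv-GFP and 18.6% and 19.1% in SurvNESmut-GFP. In Surv-GFP these counts lie near the shares of all genes. The transsulfuration enzymes CBS and CTH, which make cysteine from homocysteine, rose in both clones, CBS by 1.86 ± 0.067 and 1.58 ± 0.065 (adjusted p = 9.2e-13 and 2.6e-11) and CTH by 2.45 ± 0.11 and 1.97 ± 0.12 (adjusted p = 9e-12 and 2.3e-09). NFE2L2 had a log2 fold change of 0.058 ± 0.054 (adjusted p = 0.38) in Surv-GFP and fell by 0.30 ± 0.054 (adjusted p = 0.00031) in SurvNESmut-GFP. GCLM, the modifier subunit of glutathione synthesis, rose by 0.51 ± 0.085 (adjusted p = 7.1e-05) in Surv-GFP and gave 0.12 ± 0.073 (adjusted p = 0.21, and 0.0089 without library b of the TMZ-exposed group) in SurvNESmut-GFP. The NRF2 target NQO1 fell by 0.75 ± 0.044 (adjusted p = 4e-10) in Surv-GFP and had 0.054 ± 0.044 (adjusted p = 0.36) in SurvNESmut-GFP. GPX4, which removes lipid peroxides with glutathione, fell in both, by 0.33 ± 0.054 and 0.31 ± 0.053 (adjusted p = 7.4e-05 and 0.00024). KEAP1, the inhibitor of NRF2, also fell in Surv-GFP, by 0.18 ± 0.053 (adjusted p = 0.0069), and was named after its value was seen. The median of the 13 was 0.13 and 0.12.

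Among 20 genes that report amino acid levels to mTORC1 or GCN2, 5 rose and 4 fell upon TMZ in Surv-GFP and 6 rose and 7 fell in SurvNESmut-GFP, with medians of -0.052 and 0.088. Beside the shares of all genes, 30.1% and 28.9% in Surv-GFP and 18.6% and 19.1% in SurvNESmut-GFP, nothing particular to these genes is read from the counts. The 5 that rose in Surv-GFP were FLCN, SESN1, RRAGC and, named after their values were seen, LAMTOR1 and RPTOR, and the 4 that fell were SESN3, GATSL3, EIF2AK4 and NPRL2. FLCN, which acts on the Rag GTPases at the lysosome, rose by 1.19 ± 0.077 (adjusted p = 1.4e-09) in Surv-GFP and had 0.16 ± 0.077 (adjusted p = 0.12) in SurvNESmut-GFP, a difference of -1.03 ± 0.11 (adjusted p = 2.2e-06). SESN1 rose in both clones, by 1.30 ± 0.12 and 1.06 ± 0.11 (adjusted p = 8.6e-08 and 1.1e-06), while SESN3 of the same sestrin family fell in both, by 1.58 ± 0.070 and 0.90 ± 0.095 (adjusted p = 1.3e-11 and 1.6e-06). EIF2AK4 (GCN2), the kinase that senses uncharged tRNA upstream of ATF4, fell by 0.15 ± 0.055 (adjusted p = 0.028) in Surv-GFP and rose by 0.21 ± 0.053 (adjusted p = 0.0061) in SurvNESmut-GFP. The call of EIF2AK4 in Surv-GFP was lost without library b of the untreated (adjusted p = 0.28) or of the TMZ-exposed group (0.11), that of GATSL3 there without library a of the TMZ-exposed group (0.053), and that of EIF2AK4 in SurvNESmut-GFP without library a of the untreated group (0.062).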

How the data were processed

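Total RNA of 8 libraries (2 LN229 clones, without drug or with TMZ at 50 µM over 48 h, 2 libraries per group) was sequenced. The deposited table, made by the authors, holds raw read counts per gene symbol. The submitters' processing notes name STAR 2.5.0b, Cufflinks 2.2.1 and edgeR without their roles, and neither the labels nor the methods state the counting program, strand setting, annotation or genome build. The authors' tables of their own comparisons (fold changes, mean log CPM, F, p and FDR) were not used. The study, which also used the edgeR quasi-likelihood F test, reports few significant genes for the TMZ effects and their comparison between clones. It relaxed its p threshold for that reason. The shares of genes called here are much larger, and why the numbers differ was not tested.

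Groups were taken from the sample titles. The 2 rows naming no gene (reads without a feature, 11.2% to 14.3% of a library's counts, and ambiguous reads, 1.19% to 1.28%) were left out. Counts were scaled by TMM, genes were filtered by filterByExpr within groups, and a model of 4 group means over the 8 libraries was fitted with the quasi-likelihood F test of edgeR 4.0.16 (legacy method, limma 3.58.1, R 4.3.3). p-values were adjusted by Benjamini-Hochberg over 14201 genes, two-sided, with a threshold of 0.05. The SE of a log2 fold change was derived from the test, as its absolute value divided by the square root of F. It rests on a spread estimated over all groups and is approximate. The common biological coefficient of variation was 4.09%. CPM uses library totals (15826923 to 18861603 counts) multiplied by the TMM factors. The script was tested on simulated data. Alternatives were DESeq2 1.42.0, its size factors, library size alone, other filters (none, or 1 CPM in at least 2 libraries), the edgeR 4 method, a robust prior, a replicate block, the compared groups alone and each library left out.

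The 9 transporters and all gene lists were chosen with earlier results of these data known. Named genes were the 9; ATF4, DDIT3, TRIB3, ASNS, NFE2L2 and GCLM; the SLC7A5 copies; of each other list at most the 3 genes of smallest p per direction in each TMZ effect and in their difference; and the 3 nearest genes of each transporter spanning at least 1 on the log2 scale. List genes outside this rule are marked in the text; BIRC5 and the cell markers served as checks. Promoters are from RefSeq (GRCh38.p14), exon lengths from GENCODE v29.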

Additional observations from a re-analysis of the deposited data

Results flagged for a closer look

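Listed here are 30 genes outside the 9 transporters whose TMZ effect differed between the clones in the edgeR quasi-likelihood test of the difference itself (adjusted p under 0.05). They were drawn from the genes named for the smallest p in this same test and from ATF4, DDIT3, TRIB3, ASNS, NFE2L2 and GCLM. Their number is therefore not a result. Of all genes tested, 16.6% were called higher and 20.2% lower. Other genes named in the report also passed and are not listed, among them CHAC1, CBS, CTH, GATSL3 and XPOT. The values below are log2 fold changes upon TMZ in SurvNESmut-GFP minus those in Surv-GFP, and most of them are described in the report. The cause was not tested.

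Among plasma membrane and lysosomal transporters the difference was 3.82 for SLC1A3, 0.807 for SLC1A1, -0.621 for SLC43A2, -0.51 for PQLC2, -0.48 for SLC36A1 and -0.394 for SLC38A7. Mitochondrial carriers gave 0.67 for SLC25A12, 1.05 for SFXN2, 0.242 for SFXN3, -0.803 for SLC25A38, -0.688 for SLC25A22 and -0.45 for SLC25A44. Amino acid response genes gave 1.11 for VLDLR, 0.307 for PHGDH, -2.72 for PPP1R15A, -2.32 for TRIB3, -1.59 for DDIT3, -0.327 for ATF4 and -0.518 for ASNS. For the glutathione and NRF2 genes the values were 0.806 for NQO1, 0.335 for GCLC, -0.361 for NFE2L2, -0.351 for SRXN1 and -0.388 for GCLM. Amino acid sensing genes gave 0.687 for SESN3, 0.355 for EIF2AK4, 0.617 for NPRL2, -1.03 for FLCN, -0.455 for RRAGC and -0.19 for RRAGA. The difference of RRAGA passed the threshold in the reported fit alone and missed it under every alternative, with adjusted p of 0.052 to 0.23. That of SFXN3 was lost with DESeq2 (adjusted p = 0.094) and with any of 5 libraries left out (0.073 to 0.2), and those of SLC36A1 (0.062) and SLC38A7 (0.075) with DESeq2. Leaving out 1 library also ended the call of GCLM (3 libraries, 0.054 to 0.093), GCLC (2 libraries, 0.064 and 0.088), SLC38A7 (2 libraries, 0.063 and 0.066), SLC43A2 (TMZ-exposed Surv-GFP library b, 0.077) and PHGDH (untreated Surv-GFP library b, 0.062). The differences of the other genes listed in this paragraph kept their call under every alternative tried.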

How the results depend on the processing

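No log2 fold change of the 9 transporters that was called reversed its sign under 17 alternatives (16 for the difference of TMZ effects), and 50 of the alternative values moved by more than 1 standard error. Signs changed among values that were not called: SLC1A5 in the difference of TMZ effects (-0.024 to 0.24), SLC1A4 there (-0.087 to 0.017), SLC7A5 (-0.060 to 0.0079) and SLC3A2 (-0.00046 to 0.062) upon TMZ in SurvNESmut-GFP, and SLC6A9 between the untreated clones (-0.0072 to 0.060). With 1 library left out in turn, the transporters called higher ranged from 0 to 1 for the difference of TMZ effects (0 reported with edgeR, 0 at an unadjusted p under 0.05 and 0 with DESeq2; 1 without library b of TMZ-exposed Surv-GFP or of TMZ-exposed SurvNESmut-GFP) and from 1 to 4 between the TMZ-exposed clones (4 reported). The other transporters higher upon TMZ in SurvNESmut-GFP (5 reported) were 3 with DESeq2 and 2 to 6 with a library left out. Response genes with a larger TMZ effect in SurvNESmut-GFP (2 reported) ranged from 1 to 3 with a library left out, 1 being without library b of untreated Surv-GFP. Response genes higher in TMZ-exposed SurvNESmut-GFP (7 reported) were 4 with DESeq2 size factors, 4 with DESeq2, 4 with the compared groups alone and 3 to 7 with a library left out. All other counts stayed within 1.5 times the reported one. Of the named genes outside the 9, 58 alternative values lost the call and 1 gained it, none with a change of sign. The cause was not tested. Left out in turn, a library leaves its group with 1, which is then assumed to vary like the others.

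No pairing of the libraries by replicate letter was seen: the differences between letters correlated at -0.067 to 0.083 across genes between groups. A pairing is not excluded by this, because noise between libraries also lowers such correlations. With the letter as a replicate block, 4186 genes rose in Surv-GFP (4271 without) and 2569 in SurvNESmut-GFP (2648 without), and the counts of the 9 transporters were 9, 6, 5, 5 and 4 called in the leading direction of the 5 contrasts, as reported.

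Depth was not limiting for the 9, the lowest of which had 639 counts in a library. The limits are 1 clone per construct, 2 libraries per group that the labels do not tie to biological or technical replicates, and mRNA levels relative to the library total.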
